A study of Mus musculus with 2 samples.

Results

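AP-1 is a family of paired transcription factors made from JUN proteins (Jun, Junb, Jund) and FOS proteins (Fos, Fosb, Fosl1, Fosl2), which bind DNA through a basic region and pair through a leucine zipper. JUN proteins can pair with each other, whereas FOS proteins need a JUN partner. Many AP-1 genes, together with the zinc finger factor Egr1, the proliferation factor Myc and the small MAF protein Maff, are immediate early genes, meaning that serum, growth factors, cytokines and oxidative stress can switch them on within a short time and without new protein synthesis. In hepatocytes these factors are best known from regeneration and the response to injury. The 10 genes named here were picked by symbol from the 35275 genes of the deposited count table, and all 10 were matched to 1 Ensembl identifier each.

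The samples were AML12 cells, which are mouse hepatocytes that grow as a line without being transformed, labelled as male CD-1 liver from an animal of 3 months. The line was established from mice that carry a human TGF-alpha transgene, so that both groups share it. Control cells were not treated. Senescent cells had been given hydrogen peroxide in serum-free medium for 1 h per day on 6 days, at 1 mM and then at 0.75 mM, each time followed by 23 h in complete medium with serum and dexamethasone. RNA of 3 samples per condition was pooled into 1 library per condition, so replicates could not be compared, no p-value is given, and each difference is one between 2 libraries. The time between the last exposure or change of medium and the extraction of RNA is not given in the sources used here.

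The libraries held 28021941 control and 25738075 senescent reads on genes, and the columns were assigned by the initials of the titles Young (control) and Old (senescent). All 10 hepatocyte markers had at least 10 reads, 5 with a log2 ratio above 0 and 5 below. The hepatocyte factor gene Hnf4a had 8187 reads in control and 7705 in senescent cells, and the epithelial keratin Krt8, the marker with the most reads, had 119403 and 144783. Past the threshold, a log2 ratio of 1.5 in size, 0 were higher and 2 were lower, against 2.71% and 5.60% of all genes tested. The lower ones were albumin, Alb, with 32076 and 2917 reads (-3.23, interval -3.28 to -3.17), and Apoa1 with 2026 and 197 (-3.13, interval -3.35 to -2.92). Trf, with 26 and 17 reads, and Afp, with 75 and 65, were barely present. The 6 macrophage markers summed to 2.65 and 6.29 CPM (the unit of reads relative to the scaled library size), with Adgre1 and Clec4f at 0 in both libraries. Of the 3 with at least 10 reads, 2 were higher past the threshold. These were Ptprc with 27 and 76 reads (1.68, interval 1.07 to 2.41) and Csf1r with 15 and 40 (1.58, interval 0.76 to 2.61). The 7 fibroblast or stellate markers summed to 0.928 and 0.202 CPM, with Col1a2, Col3a1 and Acta2 at 0 in both, and the 4 endothelial markers to 0.172 and 0.484 CPM. Of these, only Col1a1 had at least 10 reads, with 21 and 1, and it was lower past the threshold. The 4 cholangiocyte markers summed to 1023 and 994 CPM, mostly from Krt19 with 22885 and 19177 reads, and 0 passed the threshold. Krt7 was lower, with 3248 and 1026 reads (-1.43, interval -1.54 to -1.33), and Sox9 higher, with 3602 and 4454 (0.54, interval 0.47 to 0.60). Whether the levels of these markers bear on the values below was not tested. In bulk RNA, fewer cells that express a gene and less RNA per cell cannot be told apart.

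Among the 10 genes, Fosb and Fosl1 had the largest log2 ratios in size with each scaling tried. Fosb went from almost no reads to a clear signal. Fosl1 rose 4.02-fold and, per kilobase of merged exons, became the most abundant of the 10 transcripts after Junb. Fos rose less, by a log2 ratio of 1.04, and Fosl2 was lower, at -0.37. The JUN genes were also lower, with Jun at 0.355 and Jund at 0.613 of their control levels and Junb close to its control level. With an assumed coefficient of variation of 0.4 between libraries, only the intervals of Fosb and Fosl1 among the 10 left out 0. This value was set for each pooled library as a whole. It is not a spread between the single samples in a pool, for which no interval was computed. Myc stood at 2.29 times its control level, while Egr1 was 1.10-fold lower and Maff 1.07-fold higher. Of the 10 genes, 2 were higher and 0 were lower past a log2 ratio of 1.5, the threshold of the study's methods, with a 95% counting interval without 0. Over all 14383 genes with at least 10 reads, 2.71% were higher and 5.60% were lower by the same rule. Past a log2 ratio of 1, 4 members were higher and 1 was lower, against 5.09% and 9.98% of all genes. The 4 included Fos at 1.04, which was at 0.93 with total-count scaling. Past a log2 ratio of 2, 2 were higher and 0 lower, against 1.52% and 3.20%, but Fosl1 exceeded 2 with TMM scaling alone and was at 1.90 with total-count scaling. The median log2 ratio of the 10 members was -0.01, and that of all genes tested was -0.02, so the members did not share a direction: 5 lay above 0 and 5 below.

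**Figure D1:**
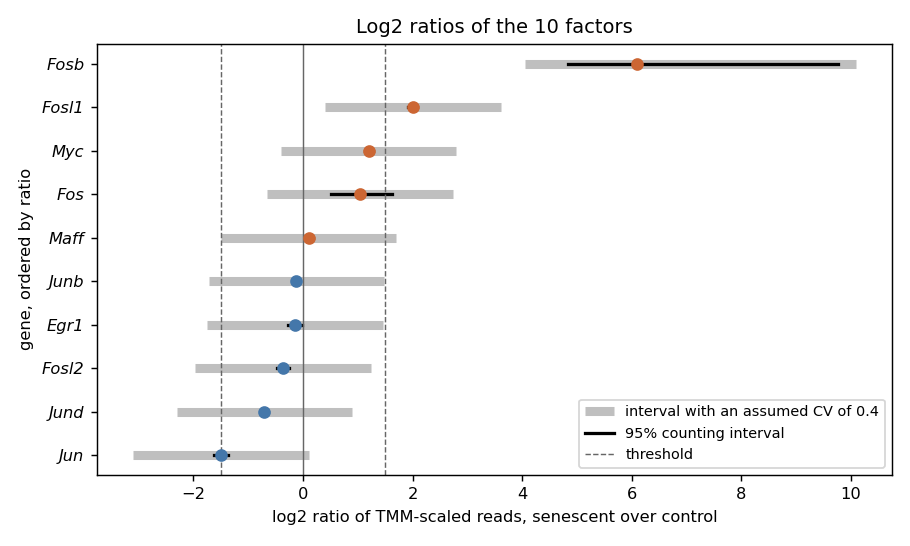
Log2 ratio of TMM-scaled reads, senescent over control, for each of the 10 genes (points). Black bars are 95% counting intervals, grey bars add an assumed coefficient of variation of 0.4 between libraries, and dashed lines mark the threshold of 1.5. Fosb and Fosl1 lie to the right of the threshold and Jun, at -1.49, lies on its left border.

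Fosl1 encodes FRA-1, a FOS protein without the transactivation domain of Fos (ENSMUSG00000024912, chromosome 19 from 5447547 to 5455946, plus strand, in the GENCODE M21 annotation of GRCm38). Control cells had 1510 reads and senescent cells 5171, or 51.9 (95% Poisson interval 49.3 to 54.6) and 208 (203 to 214) CPM after scaling. The log2 ratio was 2.0 (1.92 to 2.09), which only 1.47% of the genes tested exceeded. Scaling was by TMM in edgeR. Apart from intervals with an assumed coefficient of variation, all intervals and floors cover counting error only, with 1 library per condition. PCR copies of a molecule could not be told from separate molecules, so the intervals may be too narrow even for counting error. With an assumed coefficient of variation of 0.4 between libraries, the interval of Fosl1 widened to 0.40 to 3.61 and still left out 0. Ccdc85b overlaps Fosl1 on the opposite strand, and 48.3% of the 100-base windows of Fosl1 transcripts also occur in it. Whether the counting used strand is not given in the sources used here, so reads of these genes may have been exchanged or set aside. For Ccdc85b itself, 1764 and 1408 reads were counted (-0.10, interval -0.20 to 0.01).

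Fosb, which encodes a full-length activator and the shorter, long-lived ΔFOSB, lies on chromosome 7 from 19302696 to 19310051 (ENSMUSG00000003545, minus strand). Only 2 control reads fell on it, against 178 from senescent cells. The ratio of scaled reads was 104, with a counting interval of 28.5 to 868, and the wide interval comes from the 2 control reads. With a prior count of 1 the log2 ratio was 6.09, the second highest of all genes tested. A smaller and a larger prior count gave 6.61 and 4.86. Even in the senescent library Fosb was a minor transcript, at 7.18 CPM (6.16 to 8.31).

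Fos, the founding member of the family (ENSMUSG00000021250, chromosome 12 from 85473890 to 85477273, plus strand), had 44 control and 78 senescent reads. These correspond to 1.51 (1.10 to 2.03) and 3.14 (2.49 to 3.93) CPM, intervals that do not overlap, and the log2 ratio was 1.04 (0.50 to 1.62). Fosl2 encodes FRA-2 (ENSMUSG00000029135, chromosome 5 from 32135801 to 32157842, plus strand) and went the other way, with 1895 and 1253 reads and a log2 ratio of -0.37 (-0.47 to -0.26). Ratios of the reads of 2 genes within a library do not depend on how the libraries are scaled. Per read of Fosl2, Fosl1 had 0.797 reads in control and 4.13 in senescent cells, a 5.18-fold difference (exact interval of the odds ratio 4.72 to 5.68). Per read of Fos, Fosb had 0.0455 and 2.28 reads, 50.2-fold apart with an interval of 12.4 to 433.

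Jun, a strong transactivator and promoter of proliferation (ENSMUSG00000052684, chromosome 4 from 95049034 to 95052222, minus strand), had 1938 control and 587 senescent reads. This gave 66.6 (63.7 to 69.7) and 23.7 (21.8 to 25.7) CPM and a log2 ratio of -1.49 (-1.63 to -1.36). The value lies just short of the threshold, and scaling by upper quartile or by total count carried it past, at -1.53 and -1.60. With an assumed coefficient of variation of 0.4 its interval ran from -3.10 to 0.11. Jund, often described as an antagonist of proliferation (ENSMUSG00000071076, chromosome 8 from 70698949 to 70700616, plus strand), had 5225 and 2731 reads and a log2 ratio of -0.71 (-0.77 to -0.64). The antisense gene Gm11175 shares 43.5% of the 100-base windows of Jund and had 488 and 302 reads (-0.46, interval -0.67 to -0.25). Junb (ENSMUSG00000052837, chromosome 8 from 84974484 to 84978718, minus strand) had the most reads of the 10 genes, 11472 in control and 8997 in senescent cells. Its log2 ratio was -0.12 (-0.16 to -0.08). Junb overlaps Prdx2 and Jun overlaps Junos on the opposite strand, with 3.66% and 4.30% of windows shared. Relative to Junb, and without any scaling, Jun reads were 2.59-fold fewer in the senescent than in the control library (2.35 to 2.86) and Jund reads 1.5-fold fewer (1.42 to 1.58). Fosl1 reads per read of Jun went from 0.779 to 8.81, an 11.3-fold difference (10.1 to 12.6).

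The sequences before the transcription starts of Fosb, Fos, Jun and Maff are shown because these genes cover the range from the highest to the lowest log2 ratio and hold letters that AP-1 and CREB/ATF proteins are known to bind. The table of RefSeq promoters (GRCm38.p6) matched 7 of the 10 members in 9 windows, and Fosl1, Myc and Egr1 are named only. Not all of its starts match the GENCODE gene starts. That of Jund, 70697739, lies before its gene start at 70698949, and that of Fosl2, 32136472, inside the gene, which starts at 32135801. Each line gives the 250 bases before a start, 5′ to 3′ on the strand of the gene. Capitals mark TGACG (the core of the cAMP response element), TGACGTCA (the whole element), and the Jun promoter variants TGACATCA and TTACCTCA, each searched on both strands in the window from 250 bases before to 50 after the start. A TGACGTCA match also counts as TGACG.

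Fosb, minus strand, chr7:19310046-19310295: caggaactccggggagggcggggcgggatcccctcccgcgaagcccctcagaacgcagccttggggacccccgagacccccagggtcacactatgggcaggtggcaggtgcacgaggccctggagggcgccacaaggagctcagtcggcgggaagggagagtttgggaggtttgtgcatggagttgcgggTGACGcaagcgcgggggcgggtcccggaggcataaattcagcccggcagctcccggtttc

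Fos, plus strand, chr12:85473640-85473889: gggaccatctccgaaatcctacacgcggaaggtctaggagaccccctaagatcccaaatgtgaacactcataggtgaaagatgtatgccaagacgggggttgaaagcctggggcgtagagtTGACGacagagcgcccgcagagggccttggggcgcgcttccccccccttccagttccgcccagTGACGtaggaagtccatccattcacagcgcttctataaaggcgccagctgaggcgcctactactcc

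Jun, minus strand, chr4:95052223-95052472: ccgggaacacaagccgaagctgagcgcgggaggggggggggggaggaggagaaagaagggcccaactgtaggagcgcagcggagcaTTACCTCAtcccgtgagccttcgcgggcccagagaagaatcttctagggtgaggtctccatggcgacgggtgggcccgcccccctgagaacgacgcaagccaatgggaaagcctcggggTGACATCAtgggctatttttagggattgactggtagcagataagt

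Maff, plus strand, chr15:79347270-79347519: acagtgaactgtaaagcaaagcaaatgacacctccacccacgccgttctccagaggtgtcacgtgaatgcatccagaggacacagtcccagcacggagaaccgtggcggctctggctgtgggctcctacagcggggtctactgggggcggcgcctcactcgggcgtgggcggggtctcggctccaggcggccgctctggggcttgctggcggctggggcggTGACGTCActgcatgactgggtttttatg

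TGACG lay at nearly the same distance from the start in Fosb and Fos, from -60 to -56 in Fosb and from -66 to -62 in Fos. Fos held a further match from -129 to -125, and Junb, whose level hardly differed, held TGACG from -106 to -102. These letters are common, as 20.8% of the 32851 promoter windows of the table held them. Jun held TGACATCA from -45 to -38 and TTACCTCA from -164 to -157, which occurred in 3.62% and 0.889% of all windows. At this start, Maff held TGACGTCA from -29 to -22, found in 1.79% of windows. At another start of Maff, 79348402, TGACATCA lay from -45 to -38, the same place as in Jun, and TGACG on the opposite strand from -122 to -118. The consensus AP-1 element TGANTCA was found in 7.81% of all windows and in none of the 9 windows of the members, and the CArG box bound by SRF in 1.63% and in none. A missing match says only that these letters are not in this window.

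Levels of different genes were compared per length, as scaled CPM per kilobase of merged exons. In the control library the order ran Junb (171), Jund (108), Maff (42.2), Myc (28.3), Fosl1 (25.5), Jun (20.9), Egr1 (8.60), Fosl2 (6.73), Fos (0.643) and Fosb (0.0110). Neighbours in this order differed beyond counting error, the closest being Myc and Fosl1 with a ratio of 1.11 (1.04 to 1.19). The order also depends on the gene length used. Per kilobase of the longest transcript, 12 of the 20 ranks over both libraries were kept. The lengths include the windows shared with opposite-strand genes, 48.3% for Fosl1 and 43.5% for Jund. If reads from these windows were set aside, the levels of both genes are too low, and their ranks in either library are uncertain. In the senescent library Fosl1 stood behind Junb alone, at 103 against 158, followed by Jund (66.0), Myc (65.0), Maff (45.3), Egr1 (7.81), Jun (7.42), Fosl2 (5.22), Fos (1.34) and Fosb (1.15). There, counting error did not separate Jund from Myc (1.02, interval 0.967 to 1.07), Egr1 from Jun (1.05, interval 0.946 to 1.17) or Fos from Fosb (1.16, interval 0.880 to 1.53).

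**Figure D2:**
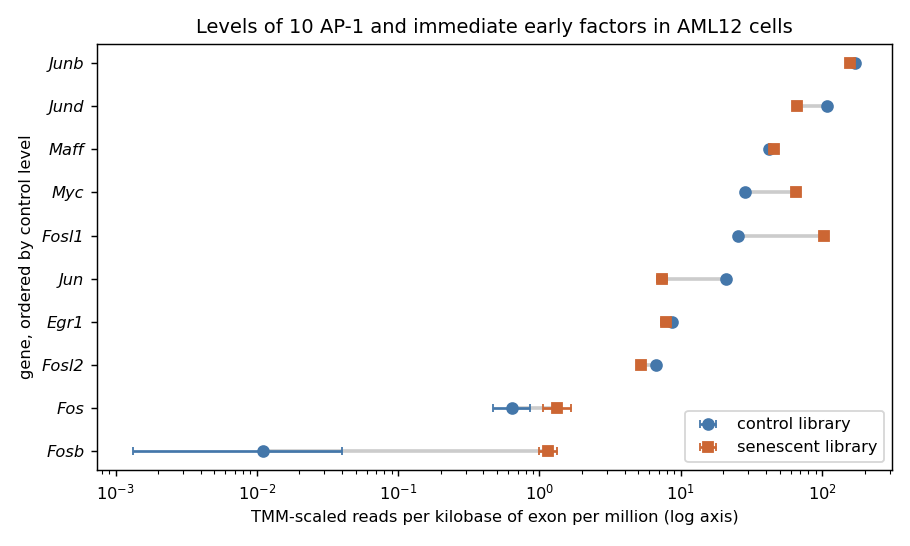
Level of each of the 10 genes in the control library (circles) and the senescent library (squares), in TMM-scaled CPM per kilobase of exon on a log axis, with 95% Poisson intervals that are mostly narrower than the symbols. Fosl1 moves from 25.5 to 103 and Jun from 20.9 to 7.42, while Junb, Maff and Egr1 stay near their control levels.

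The summed level of the FOS family was 32.9 in control and 110 in senescent cells, 3.35 times as high, whereas the JUN family summed to 300.1 and 231, a ratio of 0.770. The FOS family therefore stood at 0.110 of the JUN family level in control and at 0.477 in senescent cells. These ratios were 0.111 and 0.449 per kilobase of the longest transcript, and 0.185 and 0.542 from reads not divided by length. None of the family levels and shares allows for reads that Fosl1 or Jund may have lost to or gained from the genes on the opposite strand. Fosl1 made up 77.6% of the FOS family level in control and 93.0% in senescent cells. As a share of FOS family reads, whose exact binomial interval can be given, Fosl1 took 43.8% (42.1 to 45.4) and 77.4% (76.4 to 78.4). Fosl2, which has long exons, took 54.9% (53.2 to 56.6) and 18.8% (17.8 to 19.7) of these reads, so that the leading FOS gene of the control library depends on the division by length. Within the JUN family, the share of reads from Junb went from 61.6% (60.9 to 62.3) to 73.1% (72.3 to 73.8), that of Jund from 28% (27.4 to 28.7) to 22.2% (21.4 to 22.9) and that of Jun from 10.4% (9.97 to 10.8) to 4.77% (4.40 to 5.16).

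**Figure D3:**
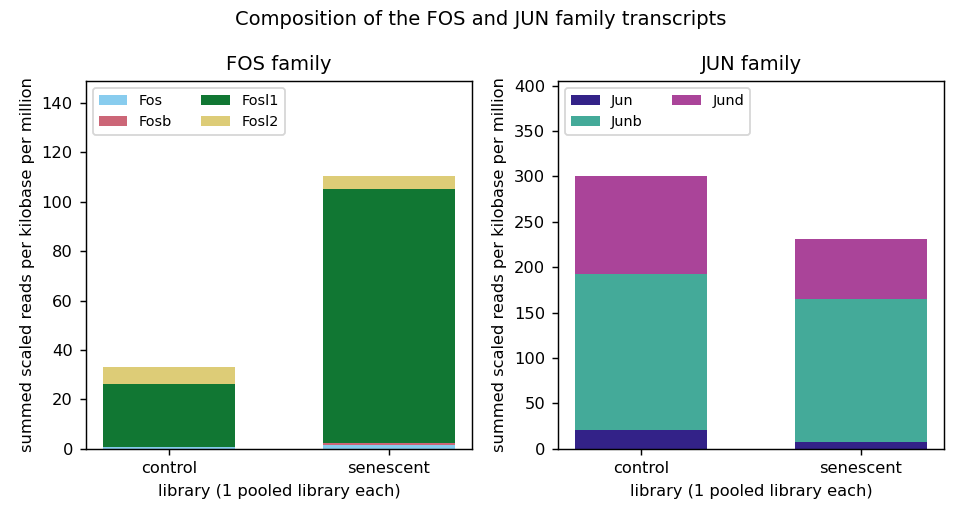
Stacked levels of the 4 FOS genes (left) and the 3 JUN genes (right) in the control and the senescent library, as summed TMM-scaled CPM per kilobase of exon, with no error bars since each bar is 1 pooled library. Fosl1 fills 93.0% of the taller FOS bar of the senescent library, and the JUN bar is lower there, at 231 against 300.1.

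Myc, which drives ribosome production and growth as a partner of Max (ENSMUSG00000022346, chromosome 15 from 61985391 to 61990374, plus strand), had 2239 control and 4382 senescent reads. Its scaled levels were 77.0 (73.8 to 80.3) and 177 (171 to 182) CPM, giving a log2 ratio of 1.20 (1.12 to 1.27). With an assumed coefficient of variation of 0.4 the interval was -0.40 to 2.80. Egr1, a zinc finger protein that binds GC-rich promoters (ENSMUSG00000038418, chromosome 18 from 34859823 to 34864984, plus strand), was counted at 1122 and 868 reads with a log2 ratio of -0.14 (-0.27 to -0.01). Maff, a small MAF protein that lacks an activation domain and pairs with NRF2-like factors (ENSMUSG00000042622, chromosome 15 from 79346621 to 79359076, plus strand), had 3183 and 2916 reads. Its log2 ratio, 0.10 (0.03 to 0.18), turned to -0.0037 when libraries were scaled by total count, so the direction is not settled. Relative to Egr1, Myc reads were 2.53-fold more frequent in the senescent library (2.28 to 2.81) and Fos reads 2.29-fold (1.55 to 3.43).

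**Figure D4:**
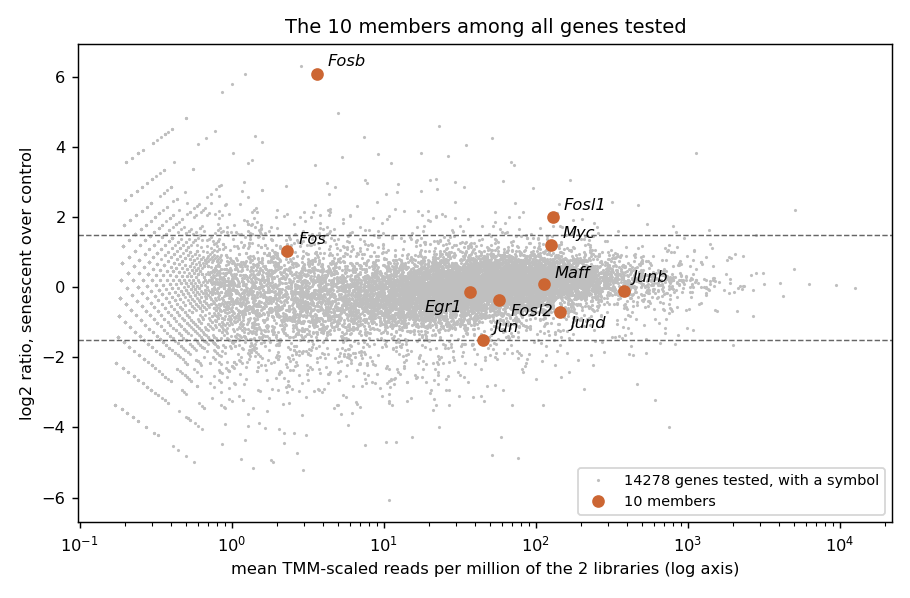
Log2 ratio, senescent over control, against the mean TMM-scaled CPM of the 2 libraries (log axis) for 14278 genes with a symbol and at least 10 reads (grey) and the 10 members (orange), with the threshold of 1.5 dashed. Fosb lies at the upper edge of the cloud at a low level, and Fosl1 and Myc lie above its centre. Jun lies in its lower part, with 5.83% of all genes tested below it.

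The other partners and regulators of these factors were taken from lists written from general knowledge, with earlier results of these data known. Their counts only describe these genes and stand beside the 2.71% of all genes that were higher and the 5.60% lower past the threshold. Of the 7 other AP-1 partners 5 had at least 10 reads and 0 lay past the threshold, the median being 0.19 on the log2 scale. Atf2 had 2417 and 2344 reads (0.19, interval 0.10 to 0.27) and Atf7 1457 and 2275 (0.87, interval 0.78 to 0.97). Of 12 MAF and CNC factors, which include the partners of Maff, 8 were tested, and 1 was lower, Nfe2, with only 13 and 1 reads (-2.64, interval -8.88 to -0.74). Those with the most reads were the stress regulators Nfe2l1, with 7160 and 9012 (0.56, interval 0.52 to 0.61), and Nfe2l2, which encodes NRF2, with 5407 and 3940 (-0.23, interval -0.29 to -0.17), and the median was -0.03. The 11 SRF, ETS and NAB regulators, which control the promoters of immediate early genes or restrain Egr1, had a median of 0.11 and a range from -0.57 to 0.40, and 0 passed. Ets2 had 7662 and 4960 reads (-0.40, interval -0.45 to -0.35) and Ets1 5569 and 4482 (-0.08, interval -0.14 to -0.03). Of 22 MAP kinases and their activators, 20 were tested, 0 passed and the median was 0.17. Rps6ka4, a kinase that acts downstream of MAP kinases, had the most reads, 5534 and 7176 (0.60, interval 0.55 to 0.66). Mapk3 had 5509 and 3088 reads (-0.61, interval -0.67 to -0.54).

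Of 35 other immediate early genes, 31 were tested, and 1 was higher and 2 were lower past the threshold, against 2.71% and 5.60% of all genes. Their median was -0.20, with 14 genes above 0 and 17 below. The lower genes were Ccn1, a matricellular YAP and SRF target, with 2506 and 583 reads (-1.87, interval -2.01 to -1.74), and Gadd45b, a stress-induced gene, with 1084 and 302 reads (-1.61, interval -1.80 to -1.43). The higher gene was Ptgs2, the inducible cyclooxygenase, with only 25 and 66 reads (1.59, interval 0.95 to 2.36). Among the Egr paralogs, Egr2 had 57 and 21 reads (-1.18, interval -2.01 to -0.47), and Egr3, with 3 and 6 reads, was not tested.

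Genes known as AP-1 targets went in both directions. Of 22 listed, 18 were tested, 4 rose and 1 fell past the threshold, against 2.71% and 5.60% of all genes. The median was 0.32 and 12 of the 18 lay above 0, against 48.9% of all genes. Mmp13, a collagenase and classical AP-1 target, rose from 135 to 981 reads (3.08, interval 2.83 to 3.36). Plaur, the urokinase receptor, rose from 2425 to 8004 reads (1.95, interval 1.89 to 2.02) and Hmga1, a chromatin protein, from 4994 to 13019 (1.61, interval 1.56 to 1.66). Mmp10 had 0 and 12 reads, which is 4.69-fold higher if the control count is set to a floor of 3 reads. Its counting interval on the log2 scale starts at 1.70 and has no upper end. Ccl2, a chemokine under NF-κB and AP-1 control, fell from 23389 to 2922 reads (-2.77, interval -2.83 to -2.72). Cyclin D1, Ccnd1, had 26692 and 49447 reads (1.12, interval 1.10 to 1.14), short of the threshold.

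Around Myc, 0 of the 13 genes of its network were higher and 2 were lower past the threshold, against 2.71% and 5.60% of all genes. Both were paralogs with few reads, Mycn, with 50 and 5 (-2.88, interval -4.78 to -1.77), and Mycl, with 21 and 2 (-2.69, interval -6.30 to -1.13). The repressor gene Mxd4, whose protein competes with Myc for Max, had the most reads of this list, 8971 and 3622 (-1.08, interval -1.13 to -1.02), followed by Mga with 2797 and 3283 (0.46, interval 0.39 to 0.53). Max, the partner of Myc, had 1247 and 1645 (0.63, interval 0.52 to 0.74). Of 30 known Myc targets, 1 passed the threshold. This was Nme2, with 2 and 13 reads. Whether its likeness in sequence to its paralog Nme1 bears on these few reads was not tested. The median of these targets was 0.56, and 24 of the 30 lay above 0, against 48.9% of all genes tested. The targets with the most reads were Ptma, prothymosin, with 100805 and 48185 (-0.84, interval -0.85 to -0.82), and Ncl, nucleolin, with 34116 and 44065 (0.60, interval 0.58 to 0.62). The nucleolar genes Nop56, with 5760 and 9826 reads (1.00, interval 0.95 to 1.05), and Nolc1, with 6485 and 10863 (0.97, interval 0.93 to 1.02), were among the higher ones. The 6 targets below 0 were Ptma, Tfrc, Shmt1, Nme1, Cdk4 and Ldha, the lactate dehydrogenase gene, which had the lowest value with 43762 and 16125 reads (-1.21, interval -1.24 to -1.18).

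**Figure D5:**
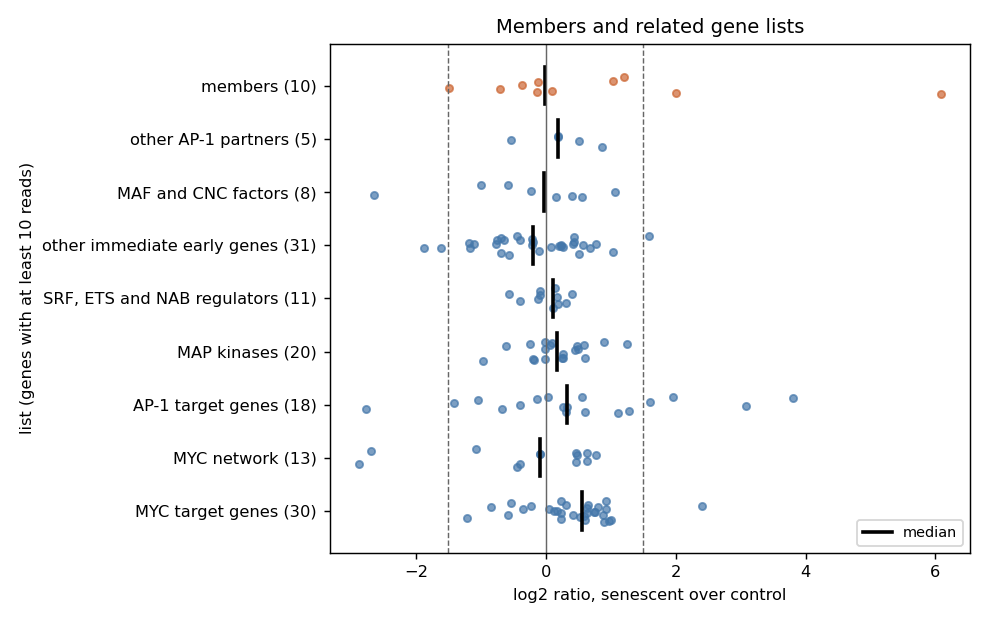
Log2 ratio, senescent over control, of each gene with at least 10 reads in the members and in the 8 related lists, with the number of genes in brackets, black bars at the medians and dashed lines at the threshold of 1.5. Medians range from -0.20 for the other immediate early genes to 0.56 for the Myc targets, and Fosb, at 6.09, is the farthest point on the right. Mmp10, with 0 control reads, is drawn at its value with a prior count of 1.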

How the data were processed

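Poly(A) RNA of AML12 cells was copied into cDNA with random primers, and the authors deposited raw read counts per Ensembl gene for 1 control and 1 senescent library. The submitters' processing notes name CASAVA, STAR, DESeq2, edgeR and mm10, while the counting tool, annotation and use of strand are not given in the sources used here. Symbols, positions and exon lengths were taken from GENCODE M21 on GRCm38, and 34490 of 35275 genes were paired with a symbol.

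Counts were scaled by TMM in edgeR 4.0.16 (R 4.3.3), with factors of 1.04 and 0.964 for the control and the senescent library. CPM values used the scaled library sizes. Log2 ratios used a prior count of 1 in proportion to library size, and their 95% intervals are Clopper-Pearson intervals of the senescent share of reads, computed in Python 3.11.15 with scipy 1.17.1. The calculation was tested on simulated data. With 1 library per condition, neither edgeR's nor DESeq2's test was run. To pass, a gene needed a log2 ratio larger in size than 1.5, an interval without 0 and 10 or more reads in the sum of the libraries. For a fold from a count of 0, that count was set to a floor of 3 reads, or 0.103 and 0.121 CPM, and counts of 1 to 3 were used as they were.

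The members and lists were chosen with earlier results of these data known. All members are named, and of each list up to 4 genes past the threshold with at least 100 reads, or the 2 with the most reads where none passed. A gene that this rule names is not reported here. Nfe2, Ptgs2, Mmp10, Mycn, Mycl, Nme2, Mapk3, Egr2, Egr3, Ccnd1, Phlda1, Mt2, Spp1, Max, Nop56 and Nolc1 fall outside that rule. So do the Myc targets below 0 other than Ptma, the markers with fewer reads and the overlapping genes. All of these were chosen after their values were seen. The alternatives were other scalings (DESeq2 1.42.0 size factors, upper quartile, total count), smaller and larger prior counts, thresholds of 1 and 2, at least 1 or 100 reads, an assumed coefficient of variation of 0.1 or 0.4, and other gene lengths.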

Additional observations from a re-analysis of the deposited data

How the results depend on the processing

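The log2 ratios of Fosb and Fosl1 stayed past the threshold under each alternative tried, from 4.86 to 6.61 and from 1.90 to 2.01. The count of lower members went from 0 to 1 (Jun) when libraries were scaled by upper quartile or, as another alternative, by total count. At a threshold of 1 the members higher and lower were 4 and 1, and over the 8 related lists 12 genes were higher and 13 lower, in place of 6 and 6. At a threshold of 2, 3 list genes were higher, and with at least 100 reads 3 were higher and 3 lower. Per kilobase of the longest transcript, the share of Fosl1 in the FOS family level was 72.2% in control and 91.0% in senescent cells, that of Jun in the JUN family 6.03% and 2.71%, and that of Junb 62.9% and 73.2%. Without division by length these shares were 43.8% and 77.4%, 10.4% and 4.77%, and 61.6% and 73.1%. With the longest transcript 12 of the 20 ranks of the order by level were kept. Total-count scaling moved the median of all genes tested by -0.11. The direction of Maff turned with it, and that of no other member did under any scaling or prior count. With 1 pooled library per condition the spread between cultures is unknown, and depth limits Fosb and Fos most.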

Other observations

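The genes next to the 10 members on the chromosome were looked up after the members' values were seen. The overlapping genes Ccdc85b, Prdx2 and Gm11175 were not counted as neighbours. Of the 20 nearest other genes with at least 100 reads, 1 on each side of each member, 0 were higher and 1 was lower past the threshold. This compares with 2.71% and 5.60% of all genes tested. Their median log2 ratio was 0.16, and that of all genes tested was -0.02. The lower gene was Pde4c beside Jund, with 529 and 89 reads (-2.33, interval -2.68 to -2.02). Beside Fosl1, AI837181 had a log2 ratio of 0.48 (0.41 to 0.56) and Fibp one of 0.15 (0.05 to 0.24). Beside Fosb, Vasp was at 0.36 (0.31 to 0.41) and Ercc1 at 0.03 (-0.10 to 0.16). The long noncoding RNA gene Pvt1, the neighbour of Myc on its right, had 449 reads in control and 699 in senescent cells (0.87, interval 0.70 to 1.04), the highest value among the 20.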
